A study of Mus musculus with 6 samples.

Results

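Neurotransmitter release genes were compared between NCAM-enriched and unselected cells of mouse skin, NCAM being a surface marker of Merkel cells. Besides Merkel cell markers (451 to 1602 CPM in sum), the NCAM-enriched libraries were also higher in suprabasal keratinocyte markers (14318 to 37217 CPM). Their values are thus not those of Merkel cells alone. In the NCAM-enriched libraries, the complexin Cplx2, the vesicle SNARE Vamp2 and the priming factor Cadps rose against bulk skin, by 15.1-fold, 5.05-fold and at least 77.2-fold in mean or pooled level. Each of these edgeR calls was lost when any single bulk skin library was left out. At most 0.00678% of all genes were then called higher. Cadps, with no count in bulk skin, passed the count filter only through the NCAM-enriched group. The presynaptic scaffold genes Pclo, Erc1 and Rimbp2, the glutamate transporter Slc17a6, Snap25, Syn2, Rab3c and Rab3d had higher fitted levels there as well and were called by DESeq2 but not by edgeR. Syt11 went the other way (fitted log2 fold change -4.50) and was called lower by DESeq2 and limma-voom but not by edgeR. DESeq2 called 5.02% of all tested genes higher and 7.05% lower. SNAREs and an adaptor that most cells use (Vamp3, Vamp8, Snap23, Stx3, Napa) had fitted log2 fold changes of -0.23 to -1.14 and did not pass the test. Vamp1, a neuronal relative of Vamp2, was at -1.51 and did not pass it either. Of other members with uses outside the nervous system, Sypl was at -0.59, Stxbp2 at 0.28 and Rab3d at 1.42. The disassembly factor Nsf (1.09) and the chaperone Dnajc5 (0.45) were above 0, and edgeR called none of these. Of 2 staple markers of synapses, Syp had at most 8 counts in a library and Syt1 at most 57, with overlapping groups. The genes are 46 members of the synaptic vesicle release machinery, chosen by symbol, among the 54532 genes counted.

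A release site works by stages. Transporters load vesicles with transmitter, Rab3 GTPases and the active zone scaffold bring the vesicle to the membrane, Munc13 and CAPS proteins prime it, and the SNAREs VAMP, SNAP-25 and syntaxin zip together and fuse it. Complexins clamp and assist the zipped SNAREs, synaptotagmins sense calcium, and NSF with its SNAP adaptors takes the SNAREs apart afterwards. Merkel cells are touch-sensing epidermal cells that signal to sensory nerve endings and carry dense-core vesicles, so they share parts of this machinery with neurons and endocrine cells. Several members (Vamp3, Vamp8, Snap23, Stx3, Rab3d, Stxbp2, Sypl) are also used for secretion or membrane traffic outside the nervous system.

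The data were 6 Smart-seq2 libraries, a full-length cDNA method for little RNA, made from dissociated dorsal epidermis of male and female C57BL/6 mice 4 weeks of age, with no other treatment. The NCAM-enriched group held 3 libraries of cells bound by anti-PSA-NCAM beads, stained for PSA-NCAM and sorted as NCAM-positive and DAPI-negative. The bulk skin group held 3 libraries of DAPI-negative cells without that selection. The labels call them total skin and the methods bulk epidermis, and fibroblast markers were read in all of them (10356 to 18198 CPM in sum). Each library came from 500 sorted events, and it was not stated whether replicates came from separate animals, so p-values measure the spread between these libraries, which may be technical. NCAM-positive cells can include other cells that carry the epitope or that stick to beads.

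Library totals ran from 1343190 to 4481830 counts, so that 1 count was worth 0.216 to 0.773 normalised CPM, the count scaled to a common library size. Values of the 3 libraries of a group are given below in the order of their replicate numbers. Fold changes are log2 values of NCAM-enriched over bulk skin ± SE from edgeR's quasi-likelihood test, with the Benjamini-Hochberg adjustment over 13157 genes, and the threshold for a call was an adjusted p of 0.05 or less. Fewer cells of a type and less RNA per cell cannot be told apart in such libraries.

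RefSeq promoter sequence (GRCm38.p6, 250 bases before to 50 after the start) matched 39 of the members with 48 promoters. Dnajc5, Vamp3, Snap25, Syt4, Rims2, Vamp2 and Syt7 had no entry. Printed below, for the genes with the largest fitted differences, are the 4 members with the highest edgeR log2 fold change among those called higher by DESeq2 and with a promoter entry. Capitals mark E-boxes: the palindrome CAGCTG, and the form CAGATG, whose letters on the opposite strand are CATCTG. The E-box is a motif read by basic helix-loop-helix factors such as Atoh1, which specifies Merkel cells.
Cadps: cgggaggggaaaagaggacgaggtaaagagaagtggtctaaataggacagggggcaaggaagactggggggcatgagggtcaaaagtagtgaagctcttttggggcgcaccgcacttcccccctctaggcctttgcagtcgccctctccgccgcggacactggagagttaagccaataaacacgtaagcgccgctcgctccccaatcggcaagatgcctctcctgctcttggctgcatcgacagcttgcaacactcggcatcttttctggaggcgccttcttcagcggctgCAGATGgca
Pclo: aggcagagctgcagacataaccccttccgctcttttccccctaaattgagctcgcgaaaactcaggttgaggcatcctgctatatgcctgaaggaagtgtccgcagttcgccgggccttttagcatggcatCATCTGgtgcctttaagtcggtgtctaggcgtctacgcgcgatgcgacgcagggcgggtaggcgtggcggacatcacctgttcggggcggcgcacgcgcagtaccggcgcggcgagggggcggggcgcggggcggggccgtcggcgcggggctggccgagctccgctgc
Cplx2: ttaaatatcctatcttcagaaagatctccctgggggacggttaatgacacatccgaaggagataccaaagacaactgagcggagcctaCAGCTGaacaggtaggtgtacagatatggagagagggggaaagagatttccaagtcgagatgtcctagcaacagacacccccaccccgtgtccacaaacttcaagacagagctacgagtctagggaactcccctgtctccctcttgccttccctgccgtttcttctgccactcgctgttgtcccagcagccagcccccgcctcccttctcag
Rimbp2: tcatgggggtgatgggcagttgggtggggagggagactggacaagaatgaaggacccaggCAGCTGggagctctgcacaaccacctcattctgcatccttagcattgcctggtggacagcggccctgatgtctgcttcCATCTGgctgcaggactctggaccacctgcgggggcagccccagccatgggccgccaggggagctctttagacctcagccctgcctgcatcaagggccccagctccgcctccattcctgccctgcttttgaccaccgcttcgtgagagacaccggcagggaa
The lines cover chr14:12823030-12823329 (Cadps, minus strand), chr5:14514668-14514967 (Pclo, plus strand), chr13:54302306-54302605 (Cplx2, plus strand) and chr5:128953437-128953736 (Rimbp2, minus strand). The E-box letters begin at base 41 in Cadps, -119 in Pclo, -162 in Cplx2 and at -190 and -112 in Rimbp2, counting the first base of the transcript as 0. The RefSeq start of Cplx2 used here lies 68793 bases from the start of the GENCODE gene, while the other 3 starts coincide. An E-box of either kind was found on either strand in 18 of the 48 member promoters (37.5%) and in 30.6% of all 32851 promoters. CAGCTG alone was in 12 member promoters (25.0%, against 16.3% of all) and CAGATG in 7 (14.6%, against 17.2%). The letters CAGCACC and GGACAG, parts of the element bound by the neuronal repressor REST, were in 6 (12.5%, against 7.14%) and 9 (18.8%, against 22.2%) member promoters. The longer TTCAGCACC, which contains CAGCACC, was in 2, those of Syn1 and Unc13a (4.17%, against 0.371%). These matches are a description of letters in a window.

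Of the 46 members, 45 had at least 1 count and 35 passed the count filter. The 11 that did not pass were Syp, Sv2b, Syn1, Syt4, Cplx3, Snph, Stxbp5l, Cadps2, Rims1, Rims2 and Erc2. edgeR called 3 members higher (Cplx2, Vamp2, Cadps), where 1.04% of all tested genes were called higher, and 0 lower, where the share was 1.55%. Without adjustment, 15 were higher (8.73% of all genes) and 1 was lower (10.2%) at p under 0.05. With DESeq2, 11 members were called higher (5.02% of all genes) and 1 lower, Syt11 (7.05% of all genes). limma-voom called Cplx2, Vamp2 and Cadps higher (2.67% of all genes) and Syt11 lower (6.45% of all genes). With every gene of at least 1 count kept, edgeR called 12 members higher (2.76% of 27884 genes) and 1 lower (2.66%). The 12 include Erc2 and Rims2, with most of their reads in 1 NCAM-enriched library each. Leaving out NCAM-enriched replicates 1, 2 and 3 in turn gave 1, 6 and 7 members higher by edgeR, while the share of all genes called higher went from 0.422% to 3.09% and 7.35%. Leaving out any bulk skin replicate gave 0 (at most 0.00678% of all genes), with 9 to 10 members at an unadjusted p under 0.05 (14.0%, 15.0% and 14.8% of all genes without replicates 1, 2 and 3).

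The groups did not overlap, with every NCAM-enriched library above every bulk skin library, in 16 of the 35 members, where 11.1% of all tested genes did so. Every NCAM-enriched library lay below every bulk skin library in 3 members (Syt11, Vamp8, Snap23), where the share of all genes was 19.3%. A further 16 overlapped. The fitted log2 fold change was above 0 in 26 of the 35, with a median of 1.57, against a median of -0.07 over all tested genes. Passing the filter favours genes that are high in a group, so the median over all 45 counted members is also given, and was 1.48, also with genes that had no count in a group set at their bound. Members took 0.255% to 0.307% of all counts in the NCAM-enriched libraries and 0.184% to 0.208% in bulk skin.

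**Figure D1:**
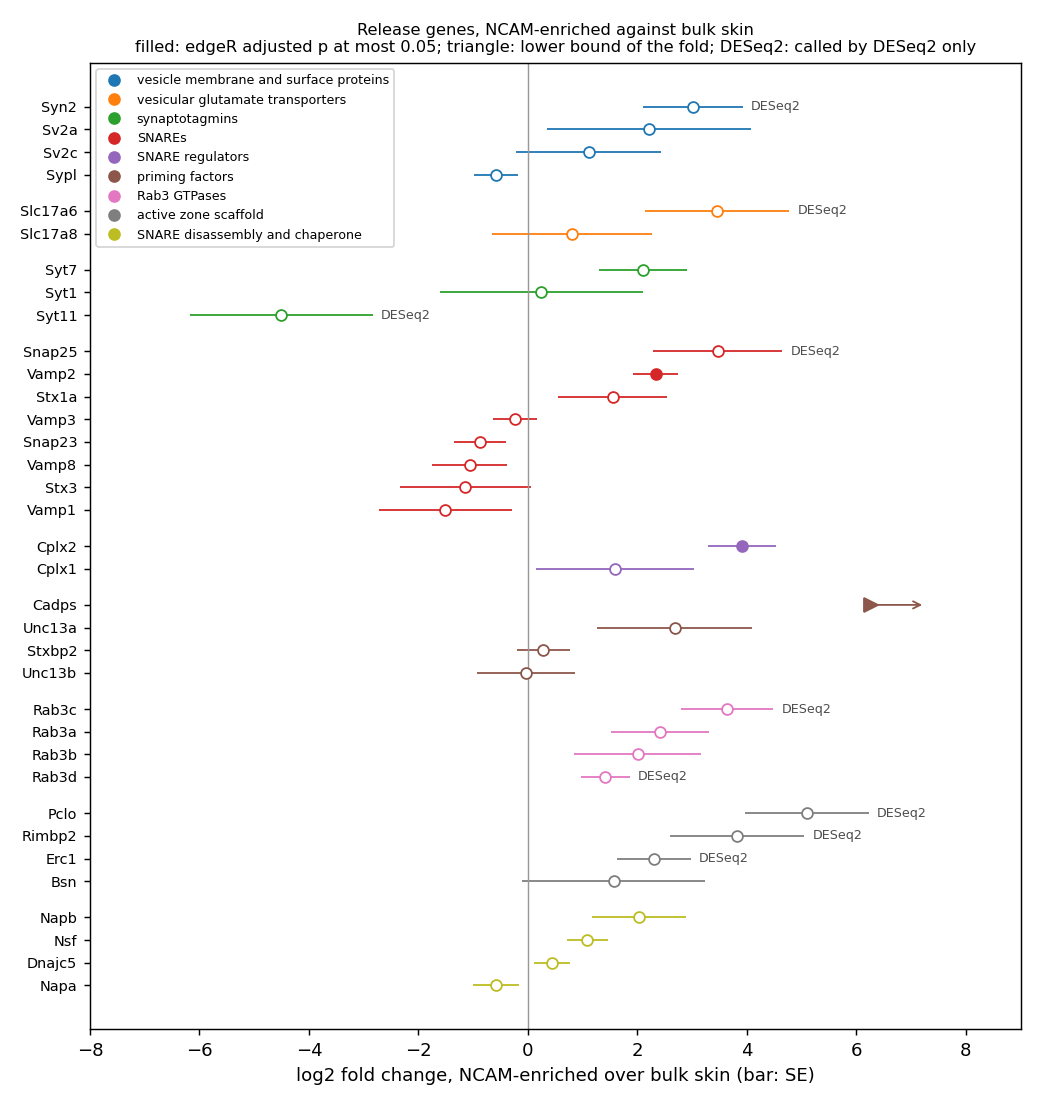
Fitted log2 fold change (horizontal axis, NCAM-enriched over bulk skin, bars SE) of the 35 members that passed the count filter, grouped and coloured by role. Filled symbols passed the edgeR threshold (Cplx2, Vamp2, and Cadps as a triangle at its lower bound, since bulk skin had no count), and "DESeq2" marks genes that only DESeq2 called among these 2 tools.

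By role, the median log2 fold change of members that passed the filter was highest in the active zone scaffold (3.06, 4 of 7 members), followed by SNARE regulators (2.75, 2 of 5), Rab3 GTPases (2.21, 4 of 4), vesicular glutamate transporters (2.13, 2 of 2), vesicle membrane and surface proteins (1.66, 4 of 7), priming factors (1.48, 4 of 5), disassembly factors (0.77, 4 of 4), synaptotagmins (0.25, 3 of 4) and SNAREs (-0.55, 8 of 8). The signs of these medians were the same in every alternative that kept all libraries and a count filter, but their order was not. With the stricter filter of 5 CPM in 3 libraries, the scaffold (3.08) was exceeded by SNARE regulators (3.93) and glutamate transporters (3.47). Under that filter Cplx2 alone was left of these regulators and Slc17a6 alone of these transporters. With the length trend removed, the scaffold (2.93) was exceeded by SNARE regulators (3.24) and Rab3 GTPases (3.11). The SNARE list joins Vamp2, Snap25 and Stx1a with 5 members that were below 0. Over all members with a count, including those under the filter, the median of the active zone scaffold was 4.94, that of SNARE regulators 1.51 and that of priming factors 0.19. The scaffold genes added there, Erc2, Rims2 and Rims1, had most of their reads in 1 library each, so the higher scaffold median rests on single libraries.

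Cplx2 (ENSMUSG00000025867, chr13:54371349-54383917, plus strand), a complexin of neurons and endocrine cells, was read at 216, 249.6 and 74.3 CPM in the NCAM-enriched libraries and at 18.3, 7.57 and 9.87 CPM in bulk skin. All NCAM-enriched libraries were above all bulk skin libraries, with the third the lowest of its group. The mean was 180.1 ± 93.1 CPM against 11.9 ± 5.66 (SD, n = 3 each), and the log2 fold change was 3.92 ± 0.62 (edgeR adjusted p = 0.0196). The call held in 12 of 15 alternatives (adjusted p from 1.6e-07 to 0.149 over all 15) and was lost without any single bulk skin library (adjusted p from 0.105 to 0.149 by edgeR). Cplx1 was read from 47, 0 and 33 counts against 12, 20 and 12, so that the groups overlapped (log2 fold change 1.59 ± 1.44, adjusted p = 0.617). Cplx3, a complexin of ribbon synapses, had 5 counts, all in the first NCAM-enriched library. Of the other regulators, Snph, which encodes the syntaxin-binding protein syntaphilin, had 20 counts in bulk skin, 19 of them in the third library, and none in the NCAM-enriched group, and Stxbp5l, a tomosyn that holds SNAREs apart, had 1 to 9 counts in every library.

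Vamp2 (ENSMUSG00000020894, chr11:69088490-69092384, plus strand), the vesicle SNARE of synapses also called synaptobrevin, was read at 218, 155 and 164 CPM in the NCAM-enriched libraries and at 25.5, 48.2 and 32.6 CPM in bulk skin. The groups were well apart, and Vamp2 varied less among the NCAM-enriched libraries than Cplx2 did. The log2 fold change was 2.33 ± 0.41 (edgeR adjusted p = 0.0270). The call held in 10 of 15 alternatives (adjusted p from 1.49e-05 to 0.224). Among libraries left out in turn, it was lost without the first NCAM-enriched library (0.0650) and without any bulk skin library (0.139 to 0.224).

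Snap25, the neuronal plasma membrane SNARE, was read at 51.0, 17.0 and 4.82 CPM in the NCAM-enriched libraries and at 2.17, 1.30 and 3.02 CPM in bulk skin. The groups did not overlap, but the third NCAM-enriched library was close to bulk skin and the first stood well above both others. The log2 fold change was 3.47 ± 1.18 (edgeR adjusted p = 0.148, DESeq2 0.0141, 0.0141 to 0.419 over 14 alternatives). Stx1a, the neuronal syntaxin, overlapped between the groups, at 61.1, 32.5 and 8.80 CPM against 4.04, 23.6 and 7.13 CPM (log2 fold change 1.55 ± 0.999, adjusted p = 0.461).

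The other SNAREs, most of them of general membrane traffic, did not pass the test in any of the 3 tools. Vamp8, which serves endosomes and regulated secretion, was read at 290.1, 37.1 and 348 CPM in the NCAM-enriched libraries and at 629.7, 417 and 367 CPM in bulk skin. Every NCAM-enriched library was below every bulk skin library, by little in the third and by much in the second (log2 fold change -1.06 ± 0.69, adjusted p = 0.464). Snap23, the widely expressed relative of Snap25, likewise lay lower without passing the test, at 30.8, 26.3 and 45.97 CPM against 68.0, 55.3 and 66.3 CPM (-0.87 ± 0.48, adjusted p = 0.381). Vamp3 was read at 125, 68.8 and 128 CPM against 161, 101 and 118 CPM and overlapped (-0.23 ± 0.40, adjusted p = 0.820). Stx3 had 0, 101 and 76 counts against 181, 371 and 296 (-1.14 ± 1.20, adjusted p = 0.675). Vamp1, which like Vamp2 encodes a synaptobrevin of neuronal vesicles, lay below 0 instead, with 4, 1 and 46 counts against 24, 106 and 61 (-1.51 ± 1.22, adjusted p = 0.570). In Stx3 and Vamp1, 1 or more NCAM-enriched libraries held next to nothing while another overlapped bulk skin in counts or CPM.

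Cadps (ENSMUSG00000054423, chr14:12372563-12823079, minus strand), which encodes CAPS1, a priming factor of dense-core vesicles, had 39, 54 and 42 counts in the NCAM-enriched libraries and 0 in each bulk skin library. In CPM the NCAM-enriched values were 20.7, 41.7 and 11.9. With no count in bulk skin, Cadps passed the count filter only through the group where it was high. All 3 NCAM-enriched libraries held it at a like number of reads, and pooled over each group its level was at least 77.2-fold higher than 3 counts over the bulk skin group would give (46.1-fold without the second bulk skin library, which lowers the total behind that floor, to 112-fold without the third NCAM-enriched library). edgeR gave an adjusted p of 0.0403, with 1.34e-06 to 0.237 over the 15 alternatives, of which 10 kept the call. Among libraries left out in turn, the call was lost without the first NCAM-enriched library (0.0656) and without any bulk skin library (0.201 to 0.237). Its relative Cadps2 had 0 counts in the NCAM-enriched libraries and 0, 9 and 4 in bulk skin.

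The other priming factors did not pass any of the 3 tools. Unc13a, the main Munc13 of brain synapses, was read at 9.03, 57.2 and 21.6 CPM in the NCAM-enriched libraries and at 5.28, 8.21 and 0 CPM in bulk skin. The groups did not overlap, but the first NCAM-enriched library was close to the second bulk skin library (log2 fold change 2.68 ± 1.42, adjusted p = 0.355). Unc13b overlapped, at 15.9, 5.41 and 31.8 CPM against 12.7, 16.6 and 25.5 CPM (-0.03 ± 0.89, adjusted p = 0.988). Stxbp2, the Munc18 protein of secretory epithelia and immune cells, was the priming gene with most reads, at 110.0, 57.2 and 103 CPM against 98.7, 83.7 and 39.8 CPM (0.28 ± 0.48, adjusted p = 0.819).

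The active zone scaffold, with 4 of 7 members tested, gave 3 of the 11 members called higher by DESeq2 (5.02% of all genes). edgeR and limma-voom called 0 in this class. Pclo, which encodes the giant scaffold protein piccolo, was read at 43.6, 81.9 and 10.2 CPM in the NCAM-enriched libraries and at 1.24, 0.432 and 2.19 CPM in bulk skin. Its bulk skin values came from 4, 2 and 8 counts, and each NCAM-enriched library was above all of them. The log2 fold change was 5.10 ± 1.13 (edgeR adjusted p = 0.0526, DESeq2 2.1e-05, 2.1e-05 to 0.285 over 15 alternatives). Antisense genes share 4.12% of its exonic bases, and their reads cannot be told apart here.

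Rimbp2, which links the scaffold to calcium channels, was read at 95.6, 12.4 and 10.8 CPM in the NCAM-enriched libraries and at 5.28, 0.865 and 2.19 CPM in bulk skin. The first NCAM-enriched library carried most of the reads, and the other 2 were still above bulk skin (log2 fold change 3.83 ± 1.23, edgeR adjusted p = 0.127, DESeq2 0.00854, 0.00854 to 0.395 over 15 alternatives). Erc1, a scaffold protein found at release sites and at the edge of many cell types, was read at 69.6, 337 and 90.2 CPM against 18.0, 41.7 and 40.6 CPM. Its second NCAM-enriched library stood far above the rest (2.30 ± 0.68, edgeR adjusted p = 0.101, DESeq2 0.0176, 0.00722 to 0.331 over 15 alternatives), and 11.8% of its exonic bases overlap an antisense gene.

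Of the remaining scaffold genes, Erc2, Rims2 and Rims1 had most of their reads in 1 library each. Erc2, the brain relative of Erc1, had 55, 1 and 2 counts in the NCAM-enriched libraries and 0 in all bulk skin libraries, a level at least 33.2-fold higher than the floor of 3 counts over the bulk group, which fell to 2.39-fold without the first NCAM-enriched library. Rims2, a RIM protein that docks vesicles, had 3, 61 and 8 counts against 0, 2 and 0. The ratio of its pooled counts was 61.8 (95% exact counting interval 16.5 to 520), with most reads from the second NCAM-enriched library. Rims1 had 24 counts in the second NCAM-enriched library, 1 in the second bulk skin library and 0 elsewhere (ratio 41.2, interval 6.71 to 1693). Bsn, which encodes bassoon, was spread over 5 libraries, with 51, 0 and 23 counts against 28, 11 and 1, and the groups overlapped (log2 fold change 1.57 ± 1.68, adjusted p = 0.681).

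All 4 Rab3 GTPases, which tether vesicles before fusion, had a fitted log2 fold change above 0. edgeR called 0 of them, with 3 higher at an unadjusted p under 0.05 (8.73% of all genes), and DESeq2 called 2 (5.02% of all genes). Rab3c was read at 138, 96.6 and 16.5 CPM in the NCAM-enriched libraries and at 4.97, 5.19 and 9.87 CPM in bulk skin. The groups did not overlap, with the third NCAM-enriched library nearest to bulk skin (log2 fold change 3.64 ± 0.84, edgeR adjusted p = 0.0590, DESeq2 0.000339, 0.000339 to 0.285 over 15 alternatives). Rab3d, the Rab3 of exocrine and other non-neural secretory cells, was read at 435, 262 and 766 CPM against 182, 215 and 151 CPM, and was the only one of the 11 members called higher by any tool that was highest in the third NCAM-enriched library (1.42 ± 0.45, edgeR adjusted p = 0.126, DESeq2 0.0383, 0.0285 to 0.353 over 15 alternatives). Rab3a, the main neuronal form, had 61.6, 159 and 25.8 CPM against 22.0, 21.0 and 3.02 CPM, with the lowest NCAM-enriched library just above the highest bulk library (2.41 ± 0.90, adjusted p = 0.189). Rab3b overlapped, with 153, 68 and 9 counts against 74, 25 and 20 (2.01 ± 1.16, adjusted p = 0.409).

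Slc17a6, which encodes the vesicular glutamate transporter VGLUT2, was read at 52.1, 79.6 and 2.55 CPM in the NCAM-enriched libraries and at 4.97, 6.49 and 0.548 CPM in bulk skin. It was high in the first and second NCAM-enriched libraries, while the third, with 9 counts, fell within the bulk skin range (log2 fold change 3.46 ± 1.32, edgeR adjusted p = 0.197, DESeq2 0.0344, 0.0344 to 0.473 over 15 alternatives). Slc17a8, which encodes VGLUT3, had 14, 6 and 6 counts against 16, 13 and 0 (0.81 ± 1.47, adjusted p = 0.831).

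Among vesicle membrane and surface proteins, Syn2 stood out. This synapsin, which tethers vesicles in the reserve pool, was read at 55.8, 223 and 41.1 CPM in the NCAM-enriched libraries and at 21.4, 2.81 and 15.4 CPM in bulk skin, and the groups did not overlap (log2 fold change 3.01 ± 0.91, edgeR adjusted p = 0.109, DESeq2 0.0111, 0.00215 to 0.296 over 15 alternatives). Syn1 had 15, 0 and 11 counts against 0, 0 and 8.

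Synaptophysin, a standard marker of synaptic and neuroendocrine vesicles, was almost unread: Syp had 6, 1 and 0 counts in the NCAM-enriched libraries against 8, 8 and 0. An antisense gene overlaps 16.8% of its exonic bases. Its relative Sypl, found in many tissues, had the most reads of this class, at 119, 73.4 and 146 CPM against 171, 125 and 214 CPM, with overlap (-0.59 ± 0.40, adjusted p = 0.489). Of the SV2 proteins, Sv2a had 59, 60 and 0 counts against 28, 0 and 29 (2.21 ± 1.87, adjusted p = 0.591) and Sv2c 143, 0 and 69 against 41, 80 and 52 (1.11 ± 1.32, adjusted p = 0.719, with the sign turned in limma-voom). Sv2b had 19 counts, all in bulk skin. Each SV2 gene was thus at 0 in at least 1 NCAM-enriched library.

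The 4 synaptotagmins did not share a direction. Syt7, a high-affinity calcium sensor of slow secretion, was read at 28.2, 85.0 and 18.4 CPM in the NCAM-enriched libraries and at 10.9, 8.86 and 10.7 CPM in bulk skin, without overlap (log2 fold change 2.10 ± 0.80, edgeR adjusted p = 0.195, DESeq2 0.0520, 0.0520 to 0.447 over 15 alternatives). Syt11, a synaptotagmin that does not sense calcium, went the other way, at 0, 3.86 and 0 CPM against 37.6, 28.3 and 11.5 CPM. Its NCAM-enriched values came from 0, 5 and 0 counts and lay below every bulk skin library (-4.50 ± 1.66, edgeR adjusted p = 0.183, DESeq2 0.0279, limma-voom 0.0246, 0.0156 to 0.440 over 15 alternatives). Syt1, the fast calcium sensor of synapses, had 23, 19 and 0 counts against 57, 22 and 0 (0.25 ± 1.86, adjusted p = 0.964), and Syt4 had 0 counts in all 6 libraries.

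The factors that recycle SNAREs were read in every library. Nsf, the ATPase that pulls SNARE complexes apart, was read at 189, 138 and 125 CPM in the NCAM-enriched libraries and at 63.6, 88.0 and 61.1 CPM in bulk skin, without overlap (1.09 ± 0.38, edgeR adjusted p = 0.157, 0.0746 to 0.420 over 15 alternatives). Napb, the brain form of its SNAP adaptor, was read at 38.3, 68.8 and 23.3 CPM against 10.9, 3.03 and 17.8 CPM, also without overlap (2.03 ± 0.86, adjusted p = 0.243). Napa, the common form, overlapped at 199, 88.9 and 230.4 CPM against 267, 301 and 209 CPM (-0.58 ± 0.42, adjusted p = 0.523). Dnajc5, the vesicle chaperone cysteine string protein, lay at 276, 191 and 225 CPM against 157, 162 and 189 CPM (0.45 ± 0.33, adjusted p = 0.534).

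Per kilobase of exon, the highest mean levels among members in the NCAM-enriched libraries were those of Rab3d (116 CPM per kb), Vamp8 (97.4), Vamp2 (47.0), Napa (45.6), Vamp3 (37.1), Rab3a (36.9), Cplx2 (36.5) and Dnajc5 (33.2). In bulk skin the same genes were at 43.6, 204, 9.30, 68.4, 43.8, 6.89, 2.42 and 24.4 CPM per kb. Cplx2 thus stood next to Rab3a and Vamp3 in the NCAM-enriched libraries and far below Vamp3 in bulk skin. Pclo and Cadps, despite their large changes, were at 2.01 and 1.65 CPM per kb in the NCAM-enriched libraries.

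**Figure D2:**
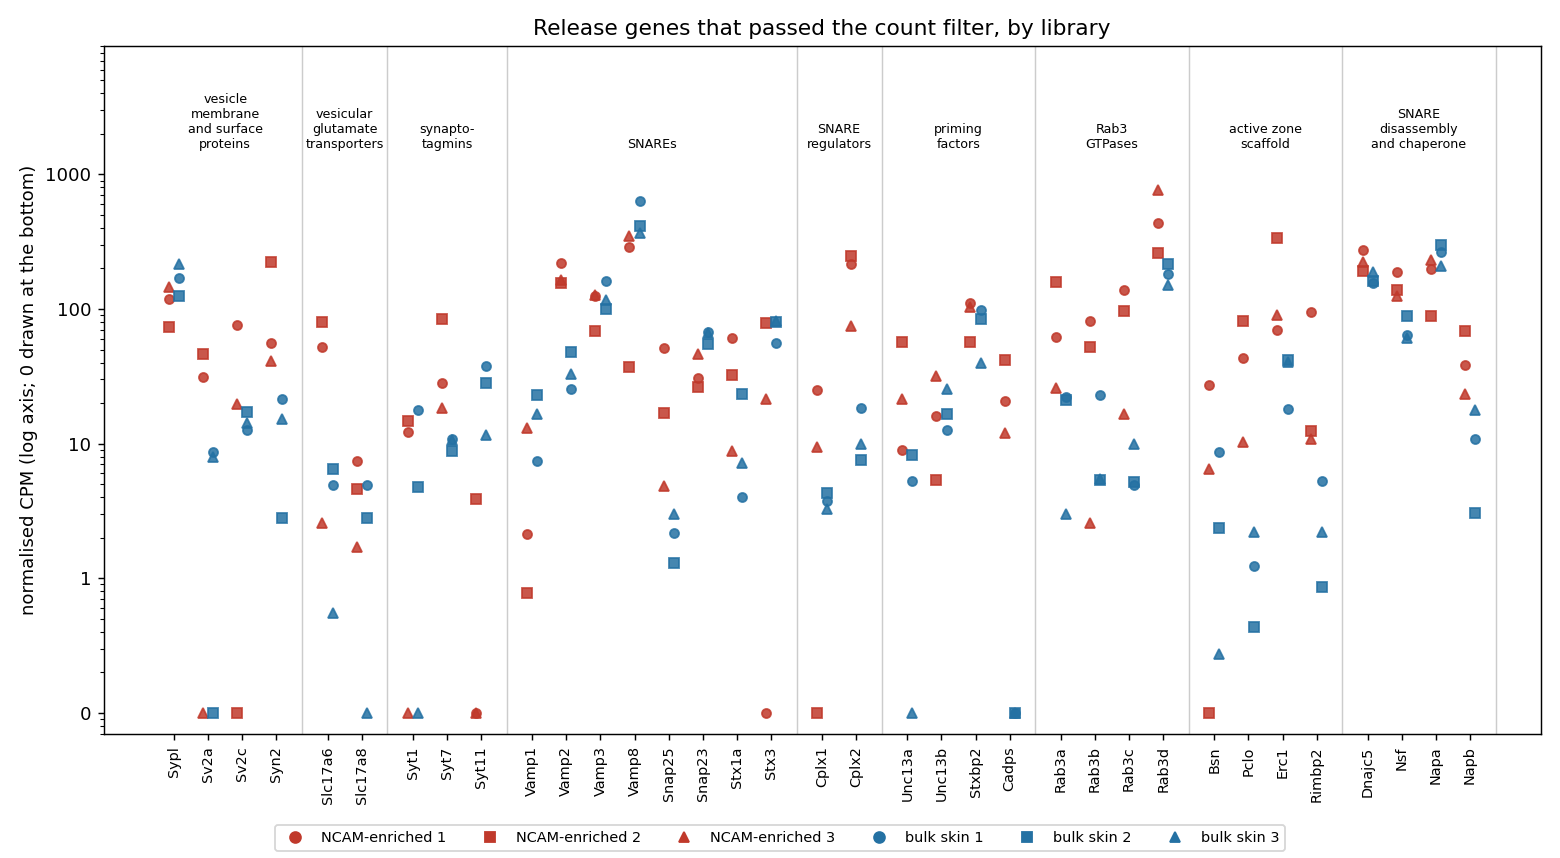
Normalised CPM (log vertical axis, 0 drawn at the bottom) of the 35 members that passed the filter, in each of the 6 libraries, ordered by role, with red for NCAM-enriched, blue for bulk skin and the symbol for the replicate number. Cplx2, Vamp2, Pclo and Rab3c show 3 red symbols above 3 blue ones, Cadps has all blue symbols at 0, and Syt11, Vamp8 and Snap23 show the reverse order.

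The balance between related genes was read within each library, where the scaling between libraries plays no part. For 10 pairs of a neuronal or endocrine member and a relative, the log2 ratio of counts, each plus 0.5, was compared between the groups with an exact two-sided permutation test, in which 3 libraries against 3 cannot go below p = 0.1. Vamp1 was in no pair. The difference was above 0 in all 10 pairs and the groups did not overlap in 7. Each of these 7 reached that smallest p of the exact test (0.143 after adjustment over the 10 pairs), so that no pair could pass 0.05. The pairs were chosen with earlier results of these data known, and Vamp2 entered against both Vamp8 and Vamp3. These counts of pairs therefore carry no independent weight, and no share over other pairs of genes was computed.

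The ratio of Vamp2 to Vamp8 was -0.41, 2.05 and -1.08 in the NCAM-enriched libraries and -4.62, -3.11 and -3.49 in bulk skin, a difference of 3.92. Against Vamp3, Vamp2 stood at 0.80, 1.17 and 0.36 in the NCAM-enriched libraries and at -2.65, -1.06 and -1.85 in bulk skin, a difference of 2.63. Vamp2 counts exceeded Vamp3 counts in every NCAM-enriched library and in no bulk skin library. Snap25 to Snap23 was 0.72, -0.62 and -3.22 against -4.87, -5.30 and -4.40 (difference 3.82), and the third NCAM-enriched library was closest to bulk skin.

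Napb to Napa was -2.37, -0.37 and -3.30 against -4.60, -6.59 and -3.54 (difference 2.90), and Unc13a to Unc13b was -0.80, 3.31 and -0.56 against -1.25, -1.01 and -7.55 (difference 3.92). In both pairs the groups were separated by a narrow gap. The Unc13a to Unc13b difference fell to 1.78 without the third bulk skin library, in which Unc13a had 0 counts. The difference for Stx1a to Stx3 was 4.77 and fell to 1.73 without the first NCAM-enriched library, in which Stx3 had 0 counts. That of Cadps to Cadps2, 8.97, rests on counts of 0 and depends on the 0.5 added. Overlap was seen for Rab3a to Rab3d (difference 1.19, p = 0.4 by the exact test), Erc2 to Erc1 (2.42, p = 0.4 by the exact test) and Syp to Sypl (0.54, p = 0.5 by the exact test).

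**Figure D3:**
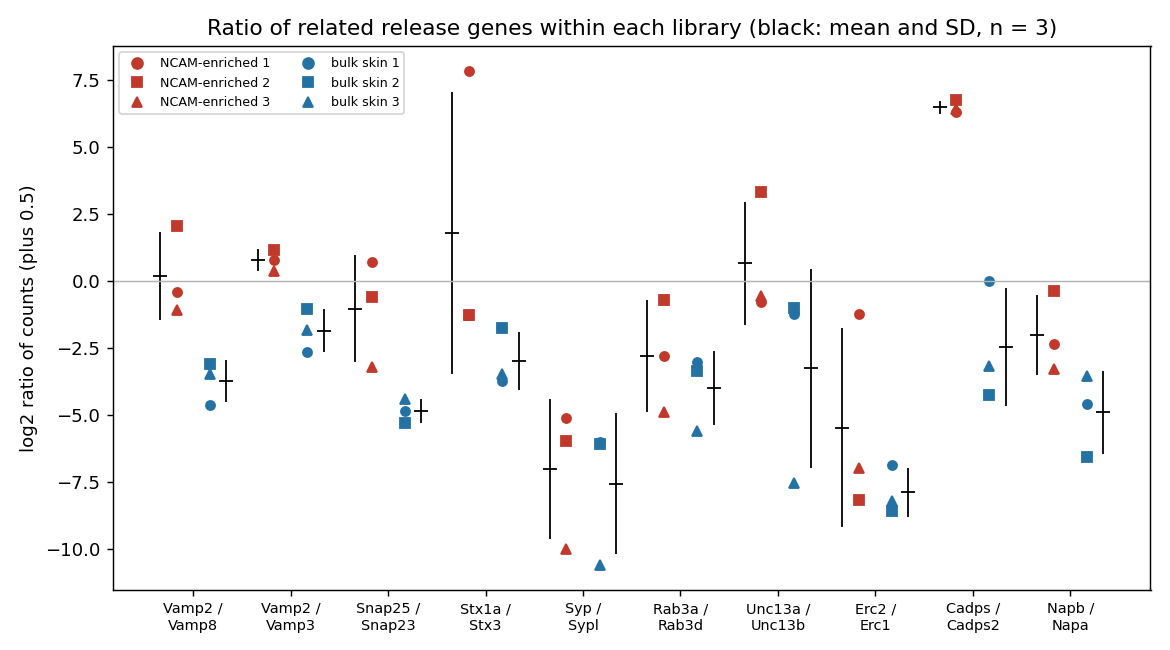
Log2 ratio of counts (each plus 0.5) of 10 pairs of related members in each library, with red for NCAM-enriched, blue for bulk skin and black bars for mean and SD (n = 3). Red lies above blue without overlap in 7 pairs, while Syp to Sypl, Rab3a to Rab3d and Erc2 to Erc1 overlap.

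As shares of a family in CPM per kilobase, Vamp2 made up 18.0% to 50.5% of Vamp1, Vamp2, Vamp3 and Vamp8 together in the NCAM-enriched libraries and 1.99% to 5.50% in bulk skin, where Vamp8 took 75.7% to 81.2%. Snap25 made up 6.22% to 51.1% of Snap25 and Snap23 in the NCAM-enriched libraries and 1.46% to 2.79% in bulk skin. Napb made up 5.14% to 29.4% of the adaptors against 0.537% to 4.38%. Cplx2 was the main complexin in the NCAM-enriched libraries, at 77.9% to 100% against 43.7% to 68.6%. The Rab3 family did not follow these, with Rab3d at 39.8% to 93.0% against 72.1% to 90.6%. Snap23 was the larger part of its pair in 5 of the 6 libraries and Napa in all 6.

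**Figure D4:**
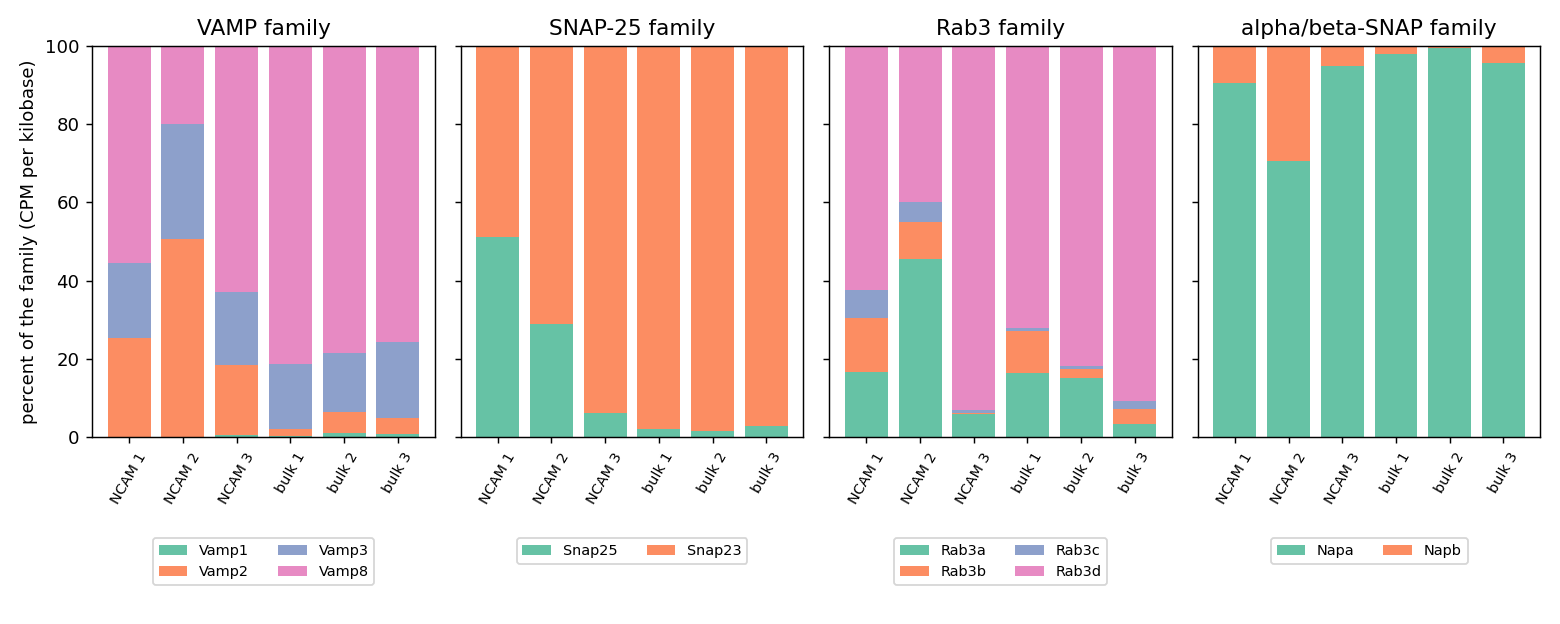
Share (percent of summed CPM per kilobase, vertical axis from 0 to 100) of each member in 4 families for the 3 NCAM-enriched and 3 bulk skin libraries, as stacked bars of single values. Vamp2 holds 18.0% or more of the VAMP bar in each NCAM-enriched library and at most 5.50% in bulk skin, whereas the Rab3 bars of the groups overlap.

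Libraries of the NCAM-enriched group differed in what else they held. Merkel cell markers summed to 1529, 1602 and 451 CPM there and to 132 to 176 CPM in bulk skin, and 5 of the 9 (Atoh1, Sox2, Pou4f3, Krt20 and Chga) were called higher. Of the 11 members called higher by any of the 3 tools, 8 were lowest in the third NCAM-enriched library, 2 in the second and 1 in the first. The third had the lowest Merkel sum and the highest basal keratinocyte sum (31095 CPM). The like shares over all genes called higher were not computed, here or for the highest library below, and a cause of the order was not tested. Suprabasal keratinocyte markers were higher too, at 14318 to 37217 CPM against 1567 to 1753 (7 of 10 called), and Langerhans and myeloid markers (8 of 9 called lower, 190 to 762 CPM against 11294 to 18689) and T and NK cell markers (8 of 9 called lower, 1.06 to 13.9 CPM against 2935 to 3134) were far lower. Cd3d, Trac, Cd2 and Gzmb had 0 counts in the NCAM-enriched libraries, Gzmb being near 0 in bulk skin too. Cplx2, Vamp2, Cadps and Syt11 thus differed between groups that also differed in all of these lists. The part of these cell types in their calls was not tested.

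Other cell types moved with single libraries. Mast cell markers summed to 1995 CPM in the first NCAM-enriched library, against 7.73 and 10.2 in the other 2. Fibroblast markers summed to 33003 CPM in the second, against 363 and 41.7. In bulk skin, mast cell markers summed to 446 to 2112 CPM, a range that holds the first NCAM-enriched library, and fibroblast markers to 10356 to 18198 CPM. Of the 11 members called higher by any of the 3 tools, Vamp2, Snap25, Rab3c and Rimbp2 were highest in the first of these libraries, and Cplx2, Cadps, Pclo, Slc17a6, Erc1 and Syn2 in the second. Erc2, under the filter, was highest in the first, and Rims1 and Rims2 in the second. The part of mast cell or fibroblast RNA in these values was not tested. Neuron markers summed to 15.9 to 33.2 CPM against 8.86 to 14.3 (1 of 9 passed the filter, 0 called by edgeR or DESeq2, and 0 at an unadjusted p under 0.05), with Nefm and Scn10a at 0 in bulk skin. With every gene of at least 1 count kept, edgeR called 1 neuron marker higher, Nefm, with 0, 32 and 29 counts against 0 in each bulk skin library (adjusted p = 0.0399). There was no neuron marker above 24.7 CPM in any library. Melanocyte (15.6 to 142 CPM against 10.6 to 35.4) and Schwann cell markers (111 to 166 CPM against 231 to 297) had 0 of 6 called each by edgeR, with 0 and 1 (lower) at an unadjusted p under 0.05 and 0 and 1 called by DESeq2. Basal keratinocyte markers lay at 7580 to 31095 CPM against 12341 to 16552 (0 of 7 called by edgeR or DESeq2, and 0 at an unadjusted p under 0.05), and skeletal muscle markers at 11.9 to 282 CPM against 6.85 to 11.8 (1 of 6 called higher, Acta1).

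**Figure D5:**
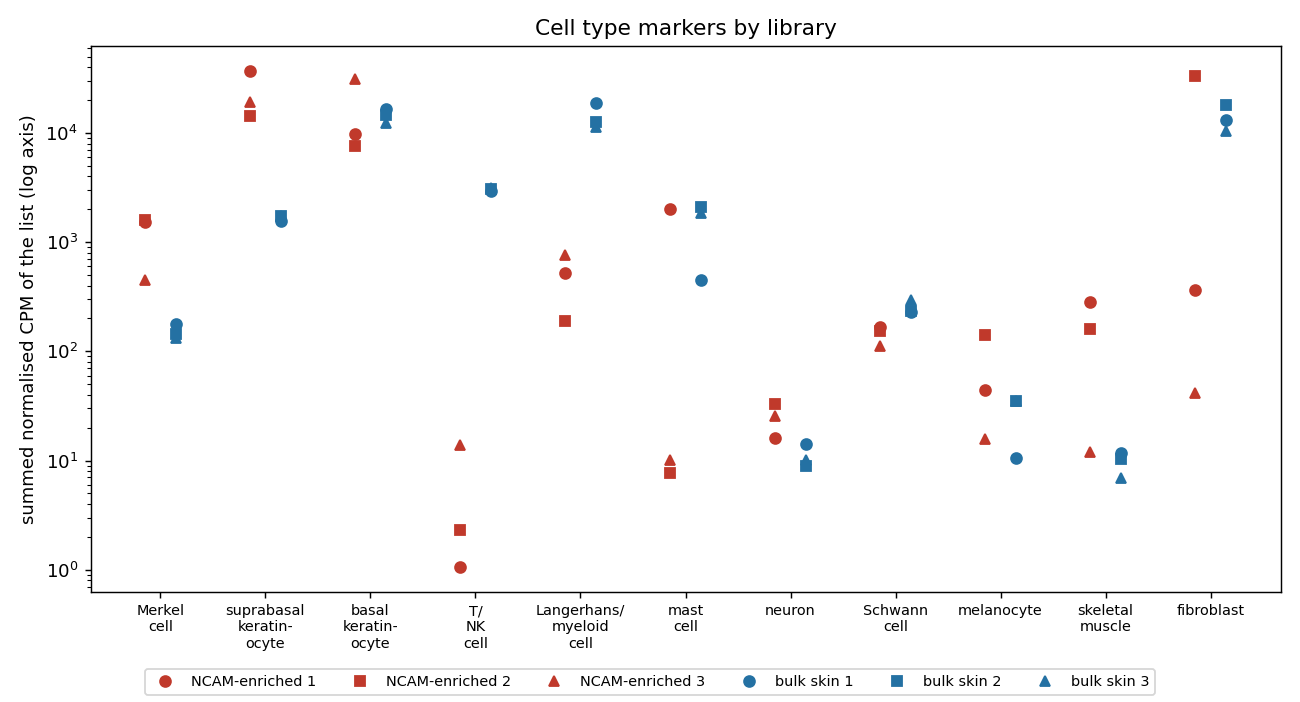
Summed normalised CPM (log vertical axis) of 11 lists of cell type markers in each library, with red for NCAM-enriched, blue for bulk skin and the symbol for the replicate number. Merkel and suprabasal sums are higher in all NCAM-enriched libraries, T, NK, Langerhans and myeloid sums are lower, and mast cell and fibroblast sums spread widely among the NCAM-enriched libraries.

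Of 67 other genes of the release pathway, 39 were tested, 20 had a fitted log2 fold change above 0 and the median was 0.05. edgeR called 0 higher and 1 lower (1.04% and 1.55% of all tested genes). Without adjustment 4 and 4 were at p under 0.05 (8.73% and 10.2% of all genes). The counts were 2 and 3 by DESeq2 (5.02% and 7.05% of all genes) and 0 and 2 by limma-voom (2.67% and 6.45%). The gene called lower by edgeR was Vamp5, a VAMP of muscle and other non-neural cells, with 1, 0 and 0 counts in the NCAM-enriched libraries and 154, 182 and 100 in bulk skin (edgeR adjusted p = 0.0252). Of 32 genes of endocytosis and vesicle recycling, 28 were tested, and 17 were above 0 with a median of 0.38. edgeR called 0 in either direction (3 higher and 1 lower at an unadjusted p under 0.05), DESeq2 3 higher (Dnm2, Sh3gl2, Cltb) and limma-voom 1 higher. The shares of all genes just given apply to these counts too.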

How the data were processed

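Counts were read for 54532 genes in 6 libraries. According to the methods, the authors clipped adapters, removed abundant sequences, mapped the rest with STAR (GRCm38) and tallied them per gene with featureCounts. The deposited values are raw counts without normalisation, and the sources used here give neither the annotation release nor the strand setting. Since Smart-seq2 reads carry no strand, overlapping antisense genes share them. No molecular identifiers were used, so the 95% exact intervals and the floor of 3 counts over a group express counting error alone.

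Groups were taken from the labels and fitted in R 4.3.3 with edgeR 4.0.16 (filterByExpr, TMM factors, quasi-likelihood F-test) over 13157 genes. The common biological coefficient of variation was 0.744. SE was derived from the test, as the size of the log2 fold change over the root of F. CPM are counts over TMM-scaled library sizes of the tested genes. Alternatives were DESeq2 1.42.0, limma-voom (limma 3.58.1), other factors and filters, a robust fit, the replicate number as a block, removal of the trend in exonic length, and leaving out each library. The fit was tested on simulated data. Gene positions and exonic lengths came from GENCODE M21, which held 54495 of the IDs. Figures were drawn with matplotlib 3.10.9.

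The members, gene lists, pairs and motifs were chosen with earlier results of these data known. Values in every library are given for members called by any of the 3 tools, for the most abundant member of each class, for members with no count in a group and at least 20 in the other, and for the 10 pairs. Of the other release genes those called by edgeR are named with values, and the 3 endocytosis genes and the markers named without a rule were chosen after their values were seen.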

Additional observations from a re-analysis of the deposited data

How the results depend on the processing

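Members called higher by edgeR numbered 3. DESeq2 gave 11, keeping every gene of at least 1 count gave 12, removing the trend in exonic length gave 5 and the replicate block, a fit in which same-numbered libraries form a set, gave 1. Among the 12 were Erc2 and Rims2, with most of their reads in 1 NCAM-enriched library each. Members called lower numbered 0, and 1 (Syt11) with DESeq2, with limma-voom and with every gene of at least 1 count kept. Leaving out 1 library gave 0 to 7 members higher and 0 to 1 lower: 1, 6 and 7 higher without NCAM-enriched replicates 1, 2 and 3, and 0 without any bulk skin replicate, where 9 to 10 members stayed at an unadjusted p under 0.05. The 1 lower (Syt11) came without NCAM-enriched replicate 2. Over all genes, 137 were called higher and 204 lower. The pair of counts was 661 and 928 by DESeq2, 351 and 849 by limma-voom, 769 and 741 when genes of at least 1 count were kept and 50 and 92 under the replicate block, and 273 were higher with the length trend removed. Leaving out 1 library gave 0 to 1099 higher and 13 to 733 lower, with 0 or 1 higher without a bulk skin replicate (2115 to 2237 genes at an unadjusted p under 0.05). The cause of these shifts was not tested. Nothing in the labels says that the numbers pair libraries, and the deviations of same-numbered libraries from their group means correlated at 0.0226, 0.000250 and -0.00436. In the replicate block Cplx2 kept its call (adjusted p = 0.0324 by edgeR), and Vamp2 (0.0788) and Cadps (0.138) did not pass.

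Across all genes the median log2 fold change was -0.07, and moved to -0.37 with limma-voom, -0.36 with the replicate block, -0.17 with upper-quartile factors and 0.31 with the length trend removed, where the medians of the members were 1.09, 1.43, 1.50 and 1.98. Of 522 member values under alternatives, 466 kept their direction and their side of the threshold, 13 were no longer past it, 29 newly passed it and 14, in 6 members, turned sign, with 0 of these called. Sv2c turned to -0.60 with limma-voom and -0.059 with the replicate block, Vamp3 to 0.32 with the length trend removed and Unc13b to 0.000173 with limma-voom. When 1 library was left out, the log2 fold change of Sv2c ran from -0.55 to 1.67, that of Syt1 from -0.43 to 1.79, that of Stxbp2 from -0.064 to 0.51, that of Bsn from -0.13 to 2.98 and that of Unc13b from -0.82 to 0.38. The difference in the Syp to Sypl ratio ran from -0.98 to 2.02. Counts of 0 limit the values of Cadps, Cadps2, Erc2, Rims1, Rims2 and Syt11.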
